A study of Mus musculus with 4 samples.

Results

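The matrix metalloproteases (Mmp), their inhibitors (Timp and Reck), the Adam sheddases and the secreted Adamts and Adamts-like proteins were followed in adult mouse mesoangioblasts with and without a short hairpin RNA against PW1. Members were taken by name. A gene entered when its symbol was Mmp, Timp, Adam, Adamts or Adamtsl with a number, or Reck, and when a probe set of the array carried that symbol alone. Of 19938 genes measured, 84 were members, namely 22 Mmp, 4 Timp, 34 Adam, 18 Adamts and 5 Adamtsl genes and Reck. Where a gene had several probe sets, the one with the highest mean over the 4 arrays stood for it.

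Mmps are zinc-dependent enzymes, secreted or held in the membrane, that cut collagens, laminins and other matrix proteins, and Timps block them by binding the active site. Adams sit in the plasma membrane, where the catalytic ones release the outer part of growth factors, receptors and adhesion molecules. Adamts enzymes are secreted and bind the matrix, in which they process procollagens and cut proteoglycans, while Adamts-like proteins share their matrix-binding modules but have no protease domain. Mesoangioblasts are stem cells of the vessel wall that can give rise to muscle fibres, and such cells meet endothelium, basement membrane and interstitial matrix on their way from blood into muscle.

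The cells were a polyclonal mesoangioblast population from tibialis anterior of adult male C57/BL6 mice, grown in medium with 20% serum and kept proliferating until RNA was taken. One group carried a lentiviral short hairpin RNA against PW1 (shPW1, n = 2 arrays) and the other a lentiviral control hairpin without a mouse target (shCtrl, n = 2 arrays). Each array held 1 RNA extraction of 1 transduced population, so p-values measure spread among extractions alone and this spread can be technical. Only 1 hairpin was tried, its plasmid was pLV-H1 and the control plasmid named in the methods was pLKO.1, so knockdown, hairpin and any difference of vector cannot be told apart.

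Peg3, the gene of PW1, read 8.67 and 8.70 on the log2 scale in shCtrl and 6.22 and 6.47 in shPW1. Both shPW1 arrays were below both shCtrl arrays, as their labels give it. The log2 fold change was -2.34 (standard error, SE, 0.10, with a limma adjusted p of 0.00428), which is 5.06-fold lower. The SD of the difference between arrays, over all probe sets tested, was 0.15 within shCtrl and 0.166 within shPW1, against 0.268 to 0.286 for arrays of different groups. Of 8 pericyte and mesoangioblast markers, 5 were called lower in shPW1, Peg3 included, against 4.35% of all genes. Beside Peg3 these were Cspg4, Pdgfrb, Pdgfra and Mcam, with log2 fold changes of -0.66, -0.45, -0.38 and -0.35. The mean log2 level of the 8 was 8.09 to 8.12 in shCtrl and 7.59 to 7.61 in shPW1. Without Peg3, the silenced gene, the difference of the mean was -0.24 in place of -0.50. Acta2, the brightest of the list, was not called (log2 fold change 0.16, limma adjusted p = 0.176), with both shPW1 arrays above both shCtrl arrays, and Alpl and Rgs5 were dim in both groups. Of 4 myoblast markers, Myod1 and Des were called lower (log2 fold changes -1.72 and -0.55), while Myf5 and Pax7 had changes of 0.15 and -0.03 and were not called. The mean level of the 4 was 8.49 to 8.51 in shCtrl and 7.94 to 7.98 in shPW1, and without Myod1 it was 8.29 to 8.32 and 8.15 to 8.17, a difference of -0.15 in place of -0.54. The mean level was 4.79 to 4.84 and 4.66 to 4.73 for 4 endothelial markers, and 4.72 to 4.89 and 4.73 to 4.89 for 6 macrophage and leukocyte markers. None of these 10 endothelial and leukocyte genes was called by limma (0 at an unadjusted p under 0.05), and Ptprc, the pan-leukocyte marker, lay between 3.62 and 4.23. Cd14, the brightest of the leukocyte list, lay between 6.36 and 6.58, with both shPW1 arrays above both shCtrl arrays (log2 fold change 0.15). Cd68 lay between 5.905 and 6.134. The part of the lower pericyte and myoblast markers in the results below was not tested. In such bulk RNA, fewer cells of a type and less RNA per cell cannot be told apart.

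Of the 84 members, 5 were called, meaning an adjusted p under 0.05 in limma over all 21789 probe sets tested. Adam12 and Adamts14 were higher in shPW1, and Adamts10, Adamtsl3 and Timp2 were lower. The 2 higher members are 2.38% of the members, against 4.93% of all genes called higher, and the 3 lower members are 3.57%, against 4.35% of all genes. These shares rest on few calls and are not read as a difference from the background of this comparison. At an unadjusted p under 0.05, 7 members (8.33%) were higher and 15 (17.9%) lower, against 13.9% of all genes higher and 13.9% lower. In 16 members (19.0%) both shPW1 arrays were above both shCtrl arrays, against 27.0% of all genes, and in 27 (32.1%) both were below, against 28.5%. The other 41 overlapped. The median log2 fold change was -0.04 over the members and -0.01 over all genes, and the median size of the change was 0.0934 and 0.118. When array medians were subtracted, 4 members were called higher and 1 lower, so the split between the directions depends on the scaling. All 5 calls were lost when any 1 of the 4 arrays was left out, where limma called 0 members and the adjusted p of these 5 genes was between 0.109 and 0.251. In these fits 4 to 7 members were higher and 5 to 16 lower at an unadjusted p under 0.05.

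**Figure D1:**
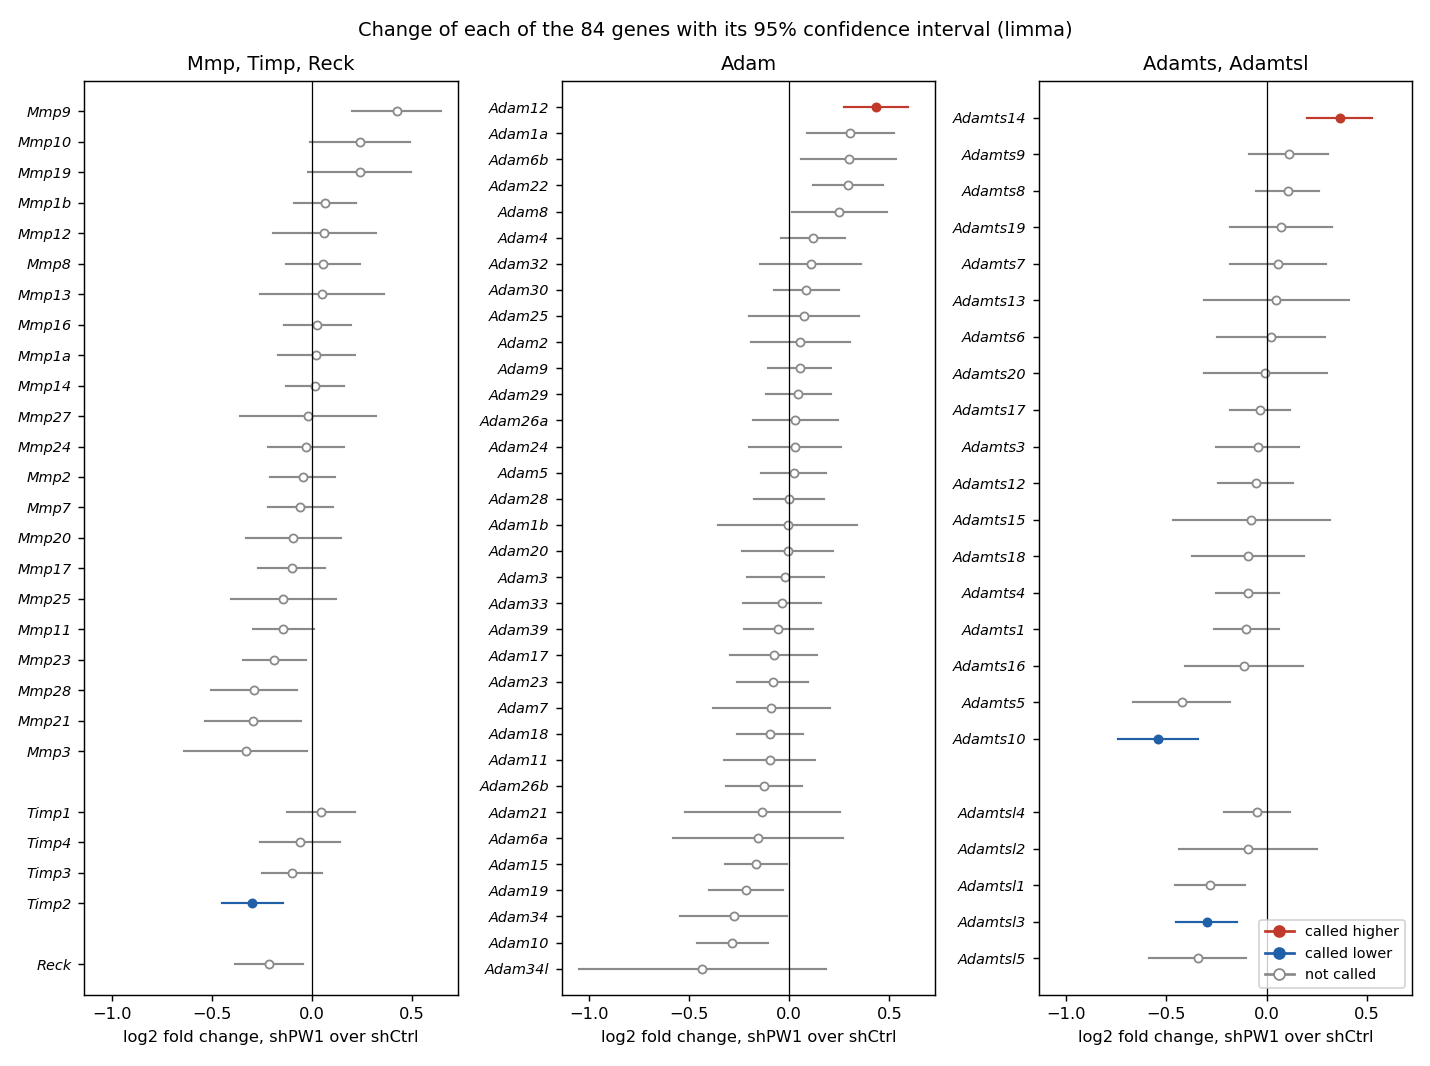
Log2 fold change of shPW1 over shCtrl (horizontal axis) for each of the 84 genes (vertical axis), by family, with limma's 95% confidence interval as a line. Filled points are called (red higher, blue lower) and open points are not; the changes run from -0.54 for Adamts10 to 0.43 for Adam12.

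Promoter sequence was read for some called members and some dim Mmps, from RefSeq (build GRCm38.p6). It is given as the 250 bases before the annotated start, 5′ to 3′ in the direction of the gene. The first set holds called genes. Timp2 encodes an inhibitor, Adamts14 a procollagen protease and Adamtsl3 a matrix protein, and their windows lie at chr11:118355412-118355661 on the minus strand, chr10:61273420-61273669 on the minus strand and chr7:82335444-82335693 on the plus strand. Neither the AP-1 site TGAGTCA nor the TATA box TATAAA, searched on both strands, occurs in these 3 windows.
Timp2: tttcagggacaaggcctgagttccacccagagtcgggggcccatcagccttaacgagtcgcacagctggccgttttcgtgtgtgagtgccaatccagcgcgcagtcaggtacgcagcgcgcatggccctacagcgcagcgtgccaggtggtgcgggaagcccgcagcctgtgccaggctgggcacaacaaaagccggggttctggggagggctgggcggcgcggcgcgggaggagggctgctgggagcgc
Adamts14: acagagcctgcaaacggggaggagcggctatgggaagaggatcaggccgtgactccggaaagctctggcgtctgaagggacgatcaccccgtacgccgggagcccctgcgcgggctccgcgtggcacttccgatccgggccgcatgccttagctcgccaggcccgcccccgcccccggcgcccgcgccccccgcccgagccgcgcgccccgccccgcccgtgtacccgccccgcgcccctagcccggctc
Adamtsl3: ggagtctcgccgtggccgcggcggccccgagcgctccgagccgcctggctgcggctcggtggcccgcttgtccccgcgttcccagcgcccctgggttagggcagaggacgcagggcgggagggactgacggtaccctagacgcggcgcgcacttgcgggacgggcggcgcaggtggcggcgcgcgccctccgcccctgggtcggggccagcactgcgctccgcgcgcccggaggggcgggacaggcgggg

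The second set comes from a run of 10 Mmp genes that follow each other on chromosome 9 in the RefSeq gene table, in the order Mmp13, Mmp12, Mmp1b, Mmp3, Mmp1a, Mmp10, Mmp8, Mmp27, Mmp20 and Mmp7. All 10 genes were dim in both groups. The windows printed, of Mmp3, Mmp13 and Mmp10, each hold both motifs, which not every promoter of the run does. Mmp3 and Mmp10 are stromelysins and Mmp13 is a collagenase. On the plus strand, the window of Mmp3 is at chr9:7445572-7445821, that of Mmp13 at chr9:7272264-7272513 and that of Mmp10 at chr9:7502092-7502341. Capitals mark an AP-1 site, TGAGTCA or its reverse complement, and a TATA box, TATAAA.
Mmp3: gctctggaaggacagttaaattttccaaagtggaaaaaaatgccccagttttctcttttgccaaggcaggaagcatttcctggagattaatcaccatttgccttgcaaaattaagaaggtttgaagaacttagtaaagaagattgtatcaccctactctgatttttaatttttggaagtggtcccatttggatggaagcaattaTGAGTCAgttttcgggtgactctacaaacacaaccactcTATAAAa
Mmp13: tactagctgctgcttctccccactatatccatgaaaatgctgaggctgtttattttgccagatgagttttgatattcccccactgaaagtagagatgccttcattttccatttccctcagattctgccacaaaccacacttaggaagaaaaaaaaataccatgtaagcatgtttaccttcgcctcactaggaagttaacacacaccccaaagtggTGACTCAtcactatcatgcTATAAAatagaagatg
Mmp10: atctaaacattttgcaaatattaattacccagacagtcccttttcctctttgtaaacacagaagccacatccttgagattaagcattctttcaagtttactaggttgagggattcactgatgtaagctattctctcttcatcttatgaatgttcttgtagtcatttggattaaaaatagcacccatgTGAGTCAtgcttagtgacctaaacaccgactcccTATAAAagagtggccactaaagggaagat

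The AP-1 letters begin 46 bases before the start of Mmp3, 35 before that of Mmp13, where they are on the other strand, and 63 before that of Mmp10. The TATA letters begin 7, 16 and 29 bases before these starts. Over windows from 250 bases before to 50 after the start, 7 of the 12 promoters of the 10 genes held an AP-1 site, 9 a TATA box and 7 both. Of all 32851 promoters in the table, 5.2% held the AP-1 letters, 13.6% the TATA letters and 0.941% both. Among 58 promoters of 53 member genes, 10 held the AP-1 letters, 16 the TATA letters and 8 both, so 7 of these 8 belong to the chromosome 9 run. A match of letters is not a bound site. On the arrays, all 10 genes of the run had a mean log2 expression under 6, with group means from 2.58 to 4.93 in shCtrl and from 2.65 to 4.98 in shPW1. Their median log2 fold change was 0.04 (range -0.33 to 0.24) and 0 were called by limma. At an unadjusted p under 0.05, 0 were higher and 1 lower (Mmp3), against 13.9% of all genes in each direction.

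Among the Mmp genes none was called by limma, and the 7 with a mean of at least 6 had log2 fold changes from -0.29 (Mmp28) to 0.24 (Mmp19). At an unadjusted p under 0.05, 1 was higher and 4 were lower, against 13.9% of all genes in each direction. The methods' analysis of variance at its own thresholds called 1 higher (Mmp9). Group means in shCtrl ran from 2.58 to 10.95 on the log2 scale, and 15 of 22 genes had a mean under 6. Brightness depends on the probe set as well as on the transcript, so these values do not rank the genes by abundance, and the deposited table holds no detection calls. The median log2 fold change of the family was -0.02, with 10 genes above and 12 below 0. It moved to 0.00 after a second quantile normalization and to 0.04 when array medians were subtracted.

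Mmp14 (MT1-MMP), a collagenase anchored in the membrane that also activates the Mmp2 proenzyme, read 10.95 and 10.95 in the shCtrl arrays and 10.96 and 10.97 in the shPW1 arrays. Both shPW1 arrays were above both shCtrl arrays. The log2 fold change of Mmp14 was 0.01 (95% confidence interval -0.13 to 0.16, limma adjusted p = 0.901) and turned to -0.04 after a second quantile normalization. Mmp2, the gelatinase that cuts basement membrane collagen, read 10.24 and 10.16 in shCtrl and 10.15 and 10.16 in shPW1. The shPW1 arrays were below the shCtrl arrays, the nearest pair by less than the second decimal shows, and the log2 fold change was -0.05 (95% confidence interval -0.21 to 0.12), turning to 0.02 with array medians subtracted. Changes inside these intervals could not be seen with 2 arrays a group.

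Mmp9, the other gelatinase, was the member just outside the threshold. It was dim, with 4.89 and 4.99 in shCtrl and 5.45 and 5.28 in shPW1. Both shPW1 arrays were above both shCtrl arrays, and the log2 fold change was 0.42 (SE 0.08, limma adjusted p = 0.0519). It was called by limma when the values were quantile normalized again (adjusted p = 0.0267) and when array medians were subtracted (adjusted p = 0.0238). A robust, intensity-trended prior also called it (adjusted p = 0.021). So did the fit on means over a gene's probe sets (adjusted p = 0.0491), where Mmp9, with 1 probe set, kept its own values. Over all alternatives its adjusted p ran up to 0.234, and the filter on dim probe sets removed it.

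The other membrane-type Mmps did not pass the test. Mmp16 had a mean of 7.09 in shCtrl and a log2 fold change of 0.03, and Mmp17, Mmp24 and Mmp25 had changes of -0.10, -0.03 and -0.14. Among stromelysins and matrilysin, Mmp11 (stromelysin-3) was the bright one, with 8.32 and 8.30 in shCtrl and 8.19 and 8.14 in shPW1. These groups did not overlap, and the log2 fold change of -0.14 (limma adjusted p = 0.206) did not pass. Mmp3, Mmp7 and Mmp10 were dim, with log2 fold changes of -0.33, -0.06 and 0.24. The 4 collagenases Mmp1a, Mmp1b, Mmp8 and Mmp13 had group means from 2.58 to 4.98 and log2 fold changes from 0.02 to 0.07. Mmp1a and Mmp1b are close copies whose probes may share signal. Of the remaining 7 Mmps, Mmp19 had a mean of 6.50 in shCtrl and a log2 fold change of 0.24 (limma adjusted p = 0.208), and Mmp28 (epilysin) had 6.31 and -0.29 (adjusted p = 0.106). Mmp28 was called lower once the dim probe sets were dropped (adjusted p = 0.0241). The other 5, Mmp12, Mmp20, Mmp21, Mmp23 and Mmp27, were dim, with changes from -0.29 to 0.06.

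Of the inhibitors, Timp2 was lower in shPW1 and the others were not called. Timp2 inhibits Mmps and also bridges Mmp14 to the Mmp2 proenzyme at the cell surface. Its log2 expression was 10.87 and 10.91 in the shCtrl arrays and 10.61 and 10.57 in the shPW1 arrays, with no overlap. The log2 fold change was -0.30 (SE 0.06, limma adjusted p = 0.0495), so the level fell by 18.6%. It was the member just inside the threshold. Its call was lost when array medians were subtracted (log2 fold change -0.23, limma adjusted p = 0.0861) and with every row of the table tested (adjusted p = 0.133), and over all alternatives its adjusted p ran from 0.000101 to 0.251.

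Timp1, a secreted inhibitor, read 11.58 and 11.52 in shCtrl and 11.55 and 11.64 in shPW1. These arrays overlapped, and the log2 fold change was 0.04 (95% confidence interval -0.13 to 0.21). Timp3, which is bound to the matrix and also inhibits Adam17 and aggrecanases, read 10.45 and 10.44 in shCtrl and 10.32 and 10.37 in shPW1. Its arrays did not overlap, and its log2 fold change of -0.10 (95% confidence interval -0.25 to 0.05, adjusted p = 0.341) did not pass. Timp4 was dim, at 3.72 and 3.87 against 3.76 and 3.71. Reck, an inhibitor anchored in the membrane, read 6.13 and 6.23 in shCtrl and 5.96 and 5.97 in shPW1, a log2 fold change of -0.22 (SE 0.07, limma adjusted p = 0.122). It was called without the dim probe sets (adjusted p = 0.0269). When the values were quantile normalized again or array medians were subtracted, Timp2, Timp3 and Reck kept a negative change and Timp1 a positive one. With array medians subtracted, Timp4 turned to 0.0045 and Timp3 was at -0.04.

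**Figure D2:**
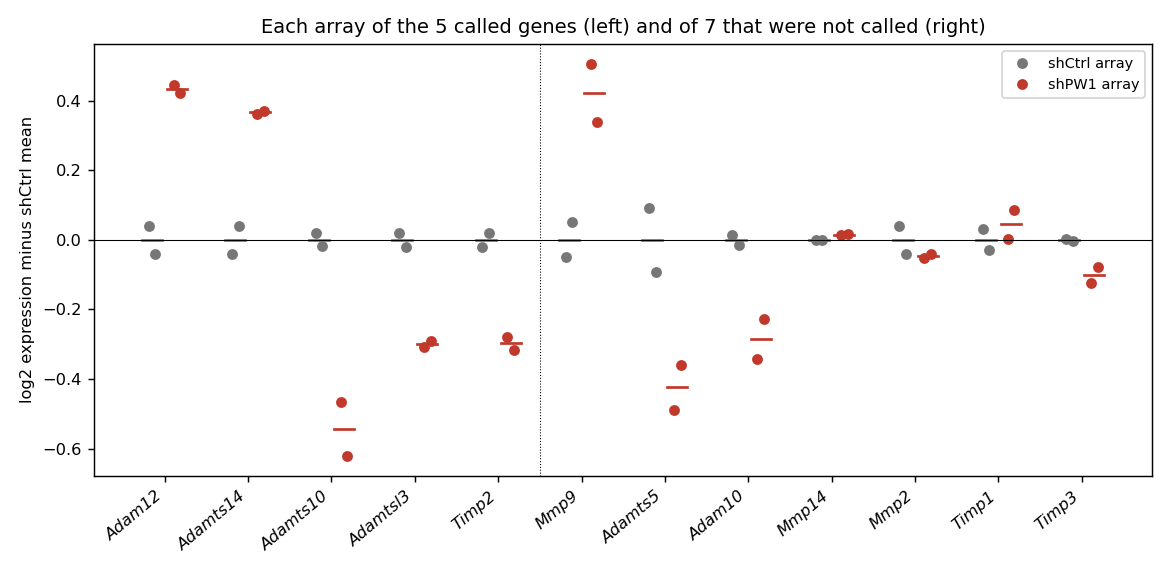
Log2 expression minus the shCtrl mean (vertical axis) for the 5 called genes, left of the dotted line, and for 7 genes that were not called. Each point is 1 array (shCtrl grey, shPW1 red) and each short line a group mean. The arrays of the 5 called genes do not overlap, and among the 7 not called only those of Timp1 do.

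Among the 34 Adam genes, Adam12 was higher in shPW1 and none was lower by limma. At an unadjusted p under 0.05, 5 were higher and 4 lower, against 13.9% of all genes in each direction. The methods' analysis of variance called Adam12 and Adam22 higher and Adam10 lower. Adam12 (meltrin alpha) is expressed in forming and regenerating muscle, where it acts in cell adhesion and can release the growth factor Hbegf. Its log2 expression was 7.92 and 7.84 in the shCtrl arrays and 8.32 and 8.30 in the shPW1 arrays. Both shPW1 arrays were above both shCtrl arrays, with a log2 fold change of 0.43 (SE 0.06, limma adjusted p = 0.0275), which is 1.35-fold. The change was between 0.39 and 0.50 over all alternatives, and the adjusted p between 0.000365 and 0.19. The median log2 fold change of the family was -0.01, and it moved to 0.02 after a second quantile normalization and to 0.06 when array medians were subtracted.

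The other widely expressed sheddases did not pass the test. Adam10, which releases the outer part of Notch receptors and N-cadherin, read 9.53 and 9.50 in shCtrl and 9.17 and 9.29 in shPW1. Both shPW1 arrays were lower, with a log2 fold change of -0.28 (SE 0.07, limma adjusted p = 0.0737). It was called lower without the dim probe sets (adjusted p = 0.0124), after a second quantile normalization (adjusted p = 0.0382) and with a robust, intensity-trended prior (adjusted p = 0.00169), but its adjusted p was 0.145 when array medians were subtracted. Adam17 (TACE), which releases Tnf and ligands of the EGF receptor, read 9.38 and 9.33 in shCtrl and 9.18 and 9.37 in shPW1. Its groups overlapped, with a log2 fold change of -0.08 (95% confidence interval -0.30 to 0.14).

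Adam9 had a mean of 10.69 in shCtrl and a log2 fold change of 0.05 (95% confidence interval -0.11 to 0.21). Adam15 had a mean of 8.56 in shCtrl with a change of -0.17 (adjusted p = 0.163), and Adam19, a sheddase of neuregulins, had 8.06 and -0.22 (adjusted p = 0.141). Both were called lower without the dim probe sets (adjusted p = 0.0409 and 0.0359) and with a robust, intensity-trended prior (0.0481 and 0.0386). Adam8 read 6.49 and 6.71 in shCtrl and 6.84 and 6.86 in shPW1, a log2 fold change of 0.25 (limma adjusted p = 0.164). Adam33 had a mean of 6.02 in shCtrl and a change of -0.04, and Adam28 was dim. So of the 7 sheddases with a mean of at least 6 over the arrays, Adam8, Adam9 and Adam12 were above 0 and Adam10, Adam15, Adam17 and Adam19 below.

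Adam11, Adam22 and Adam23 have no catalytic activity and serve as adhesion receptors in nerve. Adam23 had means of 7.98 in shCtrl and 7.90 in shPW1. Adam22 was dim, at 3.54 and 3.66 in shCtrl and 3.90 and 3.89 in shPW1, and its log2 fold change of 0.29 (limma adjusted p = 0.0669) passed after a second quantile normalization (adjusted p = 0.0471), with array medians subtracted (adjusted p = 0.038) and by the methods' analysis of variance. Adam11 had a log2 fold change of -0.10. The other 22 Adams, many of them known from testis, were all dim, with group means from 2.06 to 5.25, log2 fold changes from -0.43 (Adam34l) to 0.30 (Adam1a) and 0 calls by limma (2 higher and 1 lower at an unadjusted p under 0.05). Several of these lie side by side as close copies on chromosome 8 (Adam24, Adam25, Adam20 and Adam39, and Adam26b, Adam26a, Adam34l and Adam34), chromosome 5 (Adam1b and Adam1a) and chromosome 12 (Adam6b and Adam6a), and probes of such copies may share signal.

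**Figure D3:**
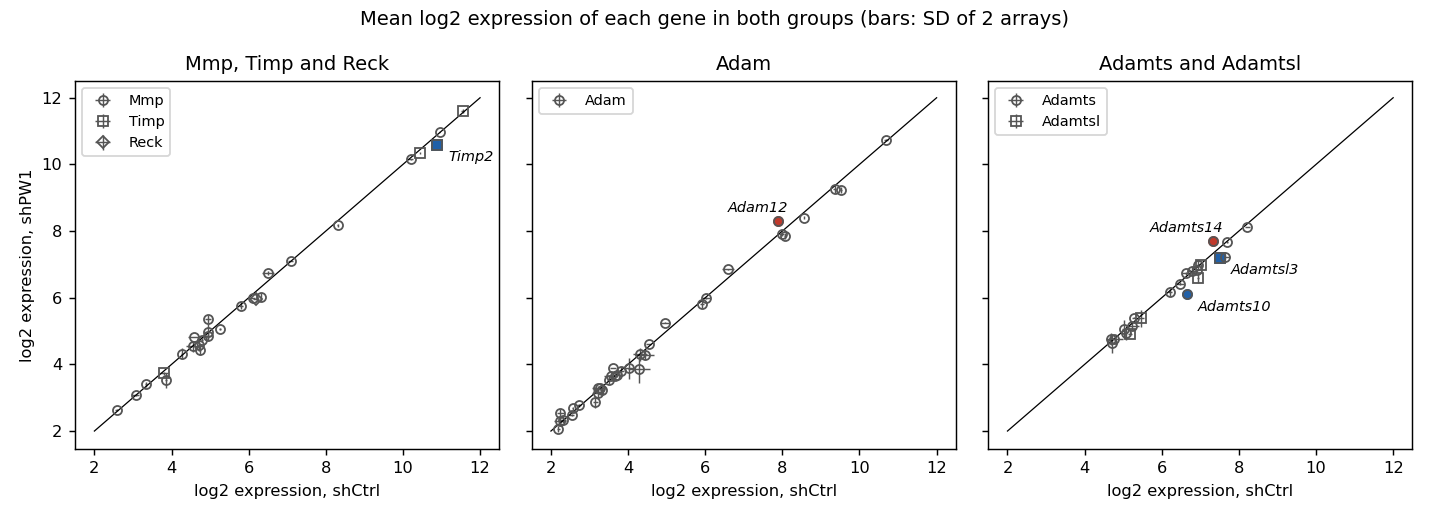
Mean log2 expression of each gene in shPW1 (vertical axis) against shCtrl (horizontal axis), with the SD of 2 arrays as bars and the line of equal levels. Filled red points are called higher and filled blue points lower in shPW1; the testis Adams and the chromosome 9 Mmps crowd the dim end, and the 5 called genes have means from 6.10 to 10.89.

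Among the 18 Adamts genes, Adamts14 was higher and Adamts10 lower in shPW1. Adamts14, a procollagen N-proteinase, removes the amino end of fibrillar procollagens. Its log2 expression was 7.28 and 7.36 in the shCtrl arrays and 7.68 and 7.69 in the shPW1 arrays, with no overlap. The log2 fold change was 0.37 (SE 0.06, limma adjusted p = 0.0362), which is 1.29-fold, and it was between 0.33 and 0.43 over all alternatives. Its relative Adamts3, which has 16 probe sets, had a log2 fold change of -0.04 on the brightest, and over all 16 the changes ran from -0.37 to 0.34 with 6 above 0, 10 below and 0 called by limma.

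Adamts10, which binds fibrillin microfibrils, had the largest change among the called members. Its log2 expression was 6.66 and 6.63 in the shCtrl arrays and 6.18 and 6.02 in the shPW1 arrays. Both shPW1 arrays were lower, with a log2 fold change of -0.54 (SE 0.08, limma adjusted p = 0.0267), so the level fell by 31.4%. The change was between -0.62 and -0.47 over all alternatives (adjusted p from 0.00151 to 0.184). Adamts10 was the member called lower under each of the settings that called any member lower, the subtraction of array medians included.

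Of the 7 aggrecanases and versicanases, which cut large proteoglycans, none was called by limma. At an unadjusted p under 0.05, 1 was lower, against 13.9% of all genes. Adamts5 read 7.73 and 7.55 in shCtrl and 7.15 and 7.28 in shPW1. These arrays did not overlap, and the log2 fold change of -0.42 (SE 0.09, limma adjusted p = 0.0604) was just outside the threshold. It was called without the dim probe sets (adjusted p = 0.0105), after a second quantile normalization (adjusted p = 0.042) and with a robust, intensity-trended prior (adjusted p = 0.00358), and not with array medians subtracted (adjusted p = 0.0816). Adamts1, which lies next to Adamts5 on chromosome 16, had a mean of 8.22 in shCtrl and a log2 fold change of -0.10 (95% confidence interval -0.26 to 0.06). Adamts4 had a change of -0.09, and Adamts9, with 6 probe sets, had 0.11 on its brightest. Over these 6 the changes ran from -0.23 to 0.21, with 3 above 0, 3 below and 0 called by limma. Adamts8, Adamts15 and Adamts20 were dim with changes from -0.08 to 0.11.

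The 8 other Adamts genes beside Adamts10 did not pass the test. Adamts17, with 5 probe sets, had a mean of 7.70 in shCtrl and a log2 fold change of -0.03 on its brightest. Adamts7 and Adamts12, which cut the cartilage protein Comp, had changes of 0.06 and -0.05. Adamts6 had 0.02, and the 4 dim ones, Adamts13, Adamts16, Adamts18 and Adamts19, had changes from -0.11 to 0.07. The median of the whole Adamts family was -0.04, and it moved to 0.00 and 0.03 under the other scalings.

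All 5 Adamts-like genes had a log2 fold change below 0, and 1 of them was called lower. Adamtsl3 (punctin-2), a matrix protein, read 7.52 and 7.48 in the shCtrl arrays and 7.19 and 7.21 in the shPW1 arrays. Both shPW1 arrays were lower, with a log2 fold change of -0.30 (SE 0.06, limma adjusted p = 0.048). The call was lost when array medians were subtracted (log2 fold change -0.23, limma adjusted p = 0.0937). Adamtsl5 read 6.95 and 6.91 in shCtrl and 6.47 and 6.70 in shPW1, a log2 fold change of -0.34 (limma adjusted p = 0.0941). It was called lower without the dim probe sets (adjusted p = 0.021) and with a robust, intensity-trended prior (adjusted p = 0.0218). Adamtsl1 (punctin-1) was dim, at 5.14 and 5.22 against 4.94 and 4.86, a log2 fold change of -0.28 (limma adjusted p = 0.0732), and its other probe set had -0.08. The methods' analysis of variance called Adamtsl1 lower. Adamtsl2 and Adamtsl4 had changes of -0.09 and -0.05, and their arrays overlapped. The family median was -0.28, and it stayed below 0 under the other scalings (-0.24 and -0.22), where Adamtsl4 turned to 0.02 with array medians subtracted. Of all 19938 genes, 10560 had a log2 fold change below 0 and 4.35% were called lower. Both shPW1 arrays were below both shCtrl arrays in 3 of the 5 genes, against 28.5% of all genes. With 5 genes, this is a description of the list only.

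**Figure D4:**
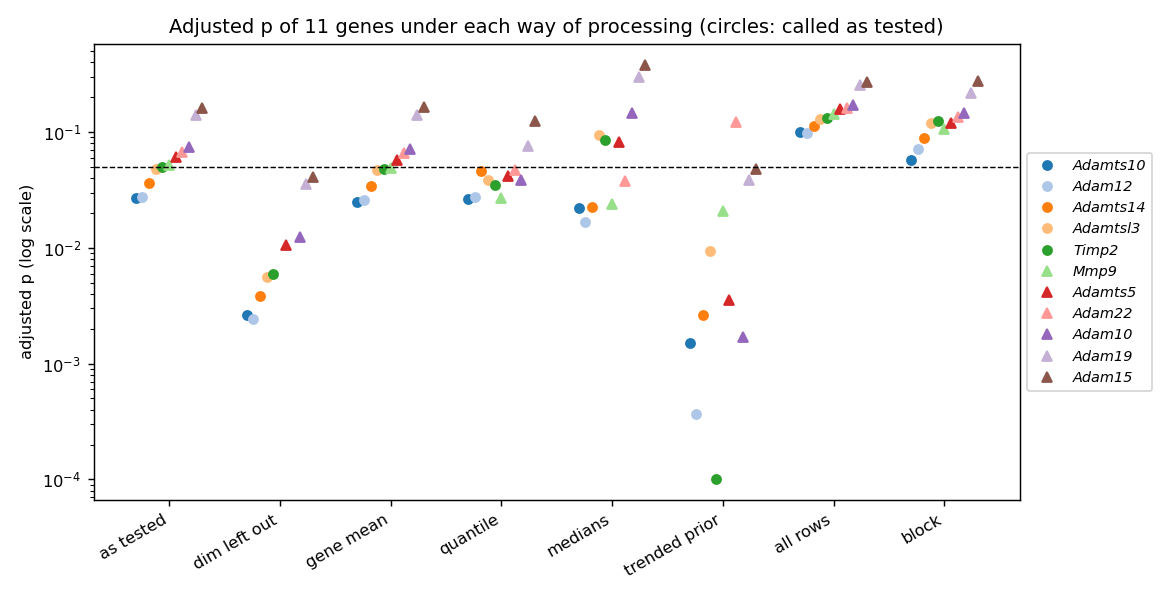
Adjusted p (vertical axis, log scale) of 11 genes under 8 ways of processing (horizontal axis), with a dashed line at 0.05. Circles are the 5 genes called as tested and triangles 6 others that some settings call, points left out where a dim gene was removed; all 11 lie above the line when all rows are tested or the replicate number is a block.

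Genes that act on these proteases were followed as a list of 23 activators, partners and clearance receptors, of which 2 were called higher (8.7%, against 4.93% of all genes) and 3 lower (13%, against 4.35%). The median log2 fold change of the list was -0.02 (all genes -0.01). This list and the 3 that follow were chosen with earlier results of these data known, so these shares describe the lists only. Rhbdf2 (iRhom2), a partner of Adam17 in its maturation, read 6.41 and 6.64 in the shCtrl arrays and 7.16 and 7.43 in the shPW1 arrays, a log2 fold change of 0.77 (SE 0.13, limma adjusted p = 0.0348). Cd44, the hyaluronan receptor that can hold Mmp9 at the cell surface, read 9.10 and 9.08 against 9.42 and 9.46 (log2 fold change 0.35, limma adjusted p = 0.0351). Tspan15, a tetraspanin partner of Adam10, read 8.30 and 8.36 against 7.72 and 7.83, a log2 fold change of -0.56 (limma adjusted p = 0.0209). The groups did not overlap for any of these genes. Spock2 (testican-2), an extracellular proteoglycan, fell from 8.28 and 8.19 to 6.74 and 6.99 (log2 fold change -1.36, limma adjusted p = 0.00859). Thbs2, a matrix protein that takes part in the clearance of Mmp2, fell from 11.36 and 11.31 to 10.91 and 10.94 (log2 fold change -0.41, limma adjusted p = 0.0272). The proconvertase Furin had a log2 fold change of 0.15 and the clearance receptor Lrp1 0.06, neither past the test. Rhbdf1, of the same family as Rhbdf2, had a mean of 8.27 in shCtrl and a log2 fold change of -0.0049 (limma adjusted p = 0.978).

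Of 7 astacin proteases and their enhancers, 2 were called lower (28.6%, against 4.35% of all genes) and none was called higher by limma (0 higher at an unadjusted p under 0.05). Bmp1, the procollagen C-proteinase that acts on the other end of the procollagens cut by Adamts14, read 9.50 and 9.42 in the shCtrl arrays and 8.64 and 8.68 in the shPW1 arrays. Its log2 fold change was -0.80 (SE 0.06, limma adjusted p = 0.00908), the opposite direction to Adamts14. Pcolce, which enhances Bmp1, fell from 11.81 and 11.81 to 11.42 and 11.48 (log2 fold change -0.35, limma adjusted p = 0.0357), a call lost when array medians were subtracted. Pcolce2 had a log2 fold change of 0.13 (limma adjusted p = 0.219). The list median was -0.10.

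Of 15 measured surface proteins and ligands shed by Adams, 5 were called higher (33.3%, against 4.93% of all genes) and 1 lower (6.67%, against 4.35%), with a median log2 fold change of 0.12. Hbegf and Ereg, ligands of the EGF receptor family, had the largest rises. Hbegf read 8.69 and 8.80 in the shCtrl arrays and 9.88 and 9.90 in the shPW1 arrays, a log2 fold change of 1.14 (SE 0.07, limma adjusted p = 0.00611), which is 2.21-fold. Ereg read 8.68 and 8.65 against 9.48 and 9.54, a log2 fold change of 0.85 (limma adjusted p = 0.00748). The groups did not overlap for either gene. Il6ra, a receptor chain shed by Adam10 and Adam17, Sdc4, a heparan sulphate proteoglycan, and Cd44 had log2 fold changes of 0.38, 0.38 and 0.35, all called. Pdgfrb, a pericyte receptor, was lower (log2 fold change -0.45, limma adjusted p = 0.0225). The other EGF receptor ligands measured, Tgfa, Btc and Egf, had log2 fold changes of -0.03, 0.01 and 0.12 and did not pass. These are transcript levels, and shedding was not measured.

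Of 8 proteoglycans and related proteins cut by Adamts enzymes, 2 were called lower (25%, against 4.35% of all genes) and none was called higher by limma (0 higher at an unadjusted p under 0.05), with a median log2 fold change of -0.16. Fmod (fibromodulin), which binds collagen fibrils, fell from 8.05 and 7.71 in the shCtrl arrays to 6.16 and 5.78 in the shPW1 arrays. Its log2 fold change was -1.91 (SE 0.18, limma adjusted p = 0.0125), which is 3.76-fold lower. Dcn (decorin) fell from 5.81 and 5.81 to 5.05 and 5.14 (log2 fold change -0.71, limma adjusted p = 0.012) and was dim in both groups. Vcan (versican), a main substrate of Adamts1 and Adamts5, read 10.45 and 10.44 against 10.28 and 10.27. Its arrays did not overlap, and its log2 fold change of -0.17 (limma adjusted p = 0.143) did not pass. Of the 52 genes on the 4 lists 14 were called, 6 higher (11.5%, against 4.93% of all genes) and 8 lower (15.4%, against 4.35%), and limma called 0 of them with any 1 array left out (14 to 19 at an unadjusted p under 0.05) or with every row of the table tested (18).

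**Figure D5:**
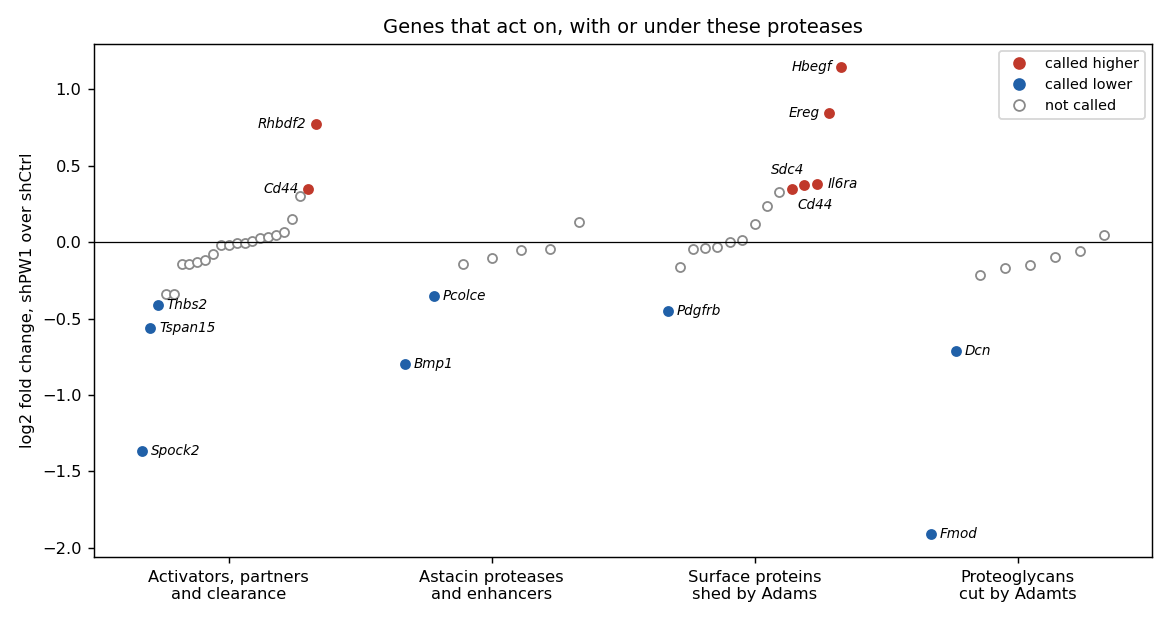
Log2 fold change of shPW1 over shCtrl (vertical axis) for each measured gene of 4 lists (horizontal axis, genes of a list ordered by their change). Filled points are called and named (red higher, blue lower) and open points are not; the lists span from Fmod at -1.91 to Hbegf at 1.14, and Cd44 stands on the first and the third list.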

How the data were processed

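RNA of shCtrl (2 extractions) and shPW1 (2 extractions) mesoangioblasts was hybridized to Affymetrix Mouse Gene ST arrays, 1 array each. The authors ran RMA in Partek, for which the submitters' processing notes give version 6.4, and deposited 35556 rows of log2 values, so background correction, normalization between arrays and summarization were done before deposit. Of these rows, 21789 carried exactly 1 gene symbol in the array's annotation, 1621 several and 12146 none. The members have 109 of these probe sets, and the Entrez ID of all 84 members gave the same symbol in RefSeq. Mmp15, Adamts2 and Areg had no row with their symbol alone.

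The groups were tested over the 21789 probe sets in R 4.3.3 by limma 3.58.1 (lmFit, then eBayes, with 2 residual and 2.72 prior degrees of freedom), two-sided, with Benjamini-Hochberg adjustment over all of them. A gene was called at an adjusted p under 0.05, and dim means a mean log2 value under 6. limma was used in place of the methods' analysis of variance (p under 0.05 and a fold change over 1.2), which is an alternative. Groups came from the sample labels. The script was tested on simulated data. The members, the lists of their partners, substrates and markers and the groups by role were chosen with earlier results of these data known. The genes named singly are every called gene of the members and lists, the inhibitors and the 5 highest means of each family. Named too are the members next to the threshold, some members of each role and some uncalled genes of the lists. The alternatives changed the rows tested (without dim probe sets, or every row), the scaling (quantile normalized again, or array medians subtracted), the prior (robust and trended), the row of a gene (mean over its probe sets), the design (replicate number as a block) and the arrays (each left out in turn). Intensities before normalization were not used here, and the number of arrays limits the precision. Motifs were searched on both strands of RefSeq promoters, in which Adam12 and Adamts10 had no entry.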

Additional observations from a re-analysis of the deposited data

How the results depend on the processing

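The counts of called members moved with most settings. Against 2 higher and 3 lower, there were 2 and 10 of 33 tested with dim probe sets left out, 4 and 5 after a second quantile normalization, 4 and 1 with array medians subtracted, 3 and 8 with a trended robust prior, 3 and 3 with the mean over a gene's probe sets, and 4 and 5 by the methods' analysis of variance. Adam12 and Adamts14 were among the higher genes, and Adamts10 among the lower, in each of these. The share of all genes called is given for the main fit only, so these counts have no background beside them. Leaving out dim probe sets also lowered the limma adjusted p of genes outside the members, that of Peg3 from 0.00428 to 0.000158. limma called 0 and 0 with all rows tested (6 and 12 at an unadjusted p under 0.05) and with any 1 of the 4 arrays left out, a range from 0 to 0, and the analysis of variance gave 0 and 0 after Benjamini-Hochberg adjustment (5 and 8 at an unadjusted p under 0.05). The deviations of arrays with the same replicate number correlated at -0.105 over probe sets. With 2 arrays a group, swapping the numbers in 1 group only turns the sign of this value. It therefore cannot tell whether arrays were paired. With the replicate block limma called 0 higher and 0 lower members (8 and 11 at an unadjusted p under 0.05), and 7 of the 14 called genes of the 4 lists lost their call, and with the crossed pairing, chosen after seeing the data, 0 and 0 (6 and 15).

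Of 628 values of 49 genes under these settings, 459 kept their side of the threshold and direction, 134 lost and 24 gained a call, and 11 changed sign, none of them of a called gene. Mmp14 turned to -0.0366 after quantile normalization. With array medians subtracted, which shifted the median of all probe sets from -0.01 to 0.05, Mmp2 turned to 0.0182, Timp4 to 0.0045, Adamts17 to 0.0333 and Adamtsl4 to 0.0175. Leaving out 1 array at a time gave changes from -0.0207 to 0.0737 for Mmp16, from -0.132 to 0.0123 for Timp4, from -0.169 to 0.0129 for Adam17, from -0.0495 to 0.167 for Adamts7, from -0.101 to 0.201 for Mmp13 and from -0.273 to 0.0860 for Adamtsl2. The cause of these moves was not tested. With 2 arrays a group and no detection calls, changes of dim genes are the least certain.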
